A study of Homo sapiens with 6 samples.

Results

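The SPARC and SMOC family of matricellular genes was examined after vitamin C treatment of A2058, an established cell line grown from metastatic human melanoma. The 8 genes SPARC, SPARCL1, SMOC1, SMOC2, SPOCK1, SPOCK2, SPOCK3 and FSTL1 were taken by symbol from the 60675 gene identifiers of the count table, and each matched 1 identifier. RNA-seq was performed on 3 wells treated with 100 µM vitamin C for 48 h and on 3 control wells. The methods of the study also give 100 µM for the RNA-seq. A dose of 50 µM, as sodium ascorbate, stands in the labels' treatment protocol instead, and the difference was not resolved. All wells came from this 1 line, in plates whose medium was renewed each day, and no well carried a genetic change made by the study. The members were chosen by gene family, and the family itself was selected on the values of this comparison, since it was proposed with the earlier vitamin C against control results known, among them the lower level of SMOC1. The difference between vitamin C and control wells is therefore given for its members as a description, with no p-value.

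Matricellular proteins are secreted into the extracellular matrix, where they modify how cells meet the matrix, growth factors and proteases rather than build its scaffold. The members of this family share a module of the extracellular calcium-binding type, and most pair it with a follistatin-like domain. SPARC (osteonectin) binds collagens and is known as an abundant product of melanoma cells. SPARCL1 (hevin) is its closest relative. SMOC1 and SMOC2 are found in basement membranes and are known as modulators of growth factor signaling, and SMOC1 antagonises bone morphogenetic proteins (BMPs) in frog embryos. SPOCK1, SPOCK2 and SPOCK3 are the testicans, proteoglycans of the matrix. FSTL1 is a secreted glycoprotein that binds BMPs and cell-surface receptors.

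SMOC1 lies on the plus strand of chromosome 14 (GRCh38, 69854131 to 70032366). It was the member whose level differed most, so the 250 bases before its RefSeq start (GRCh38.p14, chr14:69879166-69879415) are shown with CG dinucleotides, the substrate sites of DNA methylation, in capitals.
SMOC1: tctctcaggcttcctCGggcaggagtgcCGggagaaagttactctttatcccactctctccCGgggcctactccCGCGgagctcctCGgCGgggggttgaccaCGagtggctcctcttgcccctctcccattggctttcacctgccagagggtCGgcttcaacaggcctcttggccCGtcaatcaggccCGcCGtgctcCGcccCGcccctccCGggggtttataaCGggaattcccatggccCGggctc
The window lies in an intron of a longer SMOC1 transcript and holds 0 bases of SMOC1 exons in GENCODE 29. It has 17 CG dinucleotides, and 39% of 35114 RefSeq promoter windows of this length had at least as many (median 11). The letters TATAA, searched on both strands, were matched 2 times, once on each strand, and the matches overlap in 1 stretch near the 3' end. Of all windows, 18.9% held a match. Windows of 7 of the 8 members were matched. That of FSTL1 has 24 CG dinucleotides and that of SPARC has 7, neither with a TATAA match, but all 250 bases of both windows lie in exons that GENCODE 29 gives to the gene itself, unlike the SMOC1 window. GGAGG, searched on both strands with overlapping matches counted, was matched 9 times in the SPARC window, 5 times in that of FSTL1 and 1 time in that of SMOC1, and 72.4% of all windows held it. DNA methylation was not analysed here, so these are letters of the reference and not measurements of A2058 cells.

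Library totals ran from 20944956 to 32549362 counts in vitamin C wells and from 16248869 to 41884588 in control wells. Levels are given as CPM, the count of a gene scaled by these totals and by TMM factors. Vitamin C replicate 3 stood further from the others of its group, as its chi-square divided by the degrees of freedom was 9.64 and 9.38 against replicates 1 and 2, compared with 3.03 between those and 2.59 to 5.94 among control wells. The 11 melanoma markers examined each averaged at least 1 CPM and summed to 3275 to 3399 CPM in vitamin C wells and 3426 to 3584 CPM in control wells. Of these, MLANA, PMEL and TYR rose (10.4-fold, 1.66-fold and 1.22-fold), DCT fell to 0.814 of its control level, and the other 7 did not pass. The 6 epithelial markers summed to 56.0 to 58.6 CPM with vitamin C and 63.1 to 67.4 CPM in control, with 1 of 3 tested called lower. That 1 was KRT18, most of the sum, with means of 48.5 CPM with vitamin C and 56.2 CPM in control. KRT8 (6.50 and 8.16 CPM) and KRT14 (1.74 and 1.31 CPM) did not pass. CDH1, too low to test, went the other way, with 0.274, 0.517 and 0.286 CPM in vitamin C wells and 0.0240, 0.186 and 0 CPM in control wells. Markers of fibroblasts, endothelial cells and blood cells are given beside the genes they touch.

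The family fell into 3 members with more than 10 CPM and 5 members with less than 1 CPM. SPARC was by far the most abundant and was at a like level in both groups, FSTL1 was 1.39-fold higher in vitamin C wells, and SMOC1 was at 0.481 of its control level. SPARC supplied 96.3% ± 0.378 of the reads of the family in vitamin C wells and 96.6% ± 0.104 in control wells (SD, n = 3 wells each). With SPARC in the sum, the level of the 8 genes was 2396 ± 158 CPM in vitamin C wells and 2400 ± 116 CPM in control wells. In the fit over all 16353 genes with enough counts, 5 members could be tested and 2 of them, FSTL1 and SMOC1, passed an adjusted p of 0.05 in edgeR. Of all genes tested, 11.2% passed, 6.09% as higher and 5.09% as lower, and nothing is read from the members' count since this comparison was known when they were chosen.

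**Figure D1:**
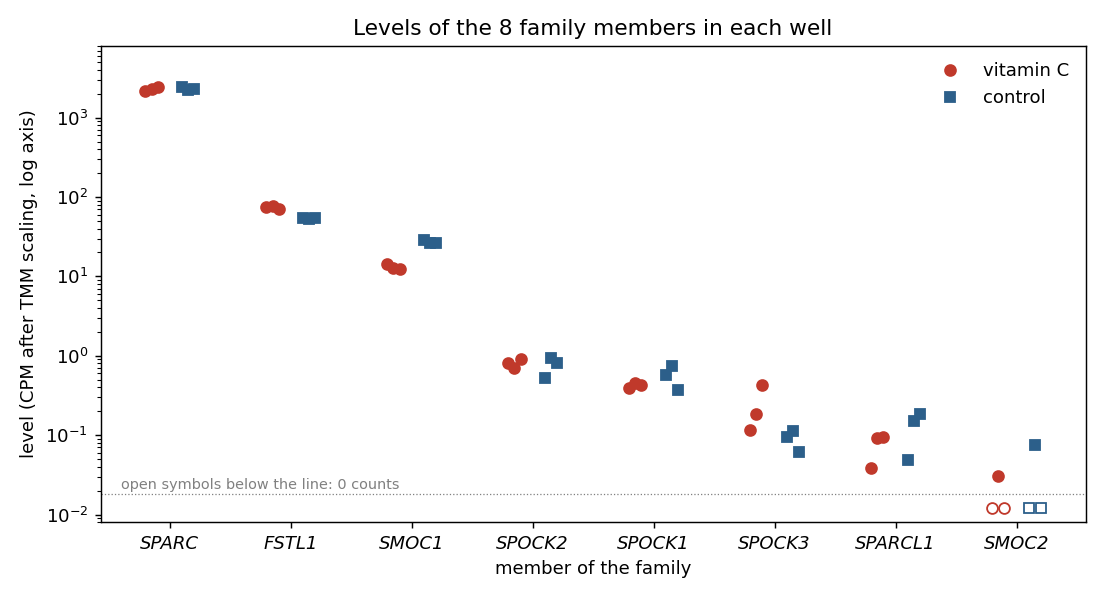
Level of each of the 8 members in CPM after TMM scaling (y axis, log scale) in each vitamin C well (red circles) and control well (blue squares), with members ordered by mean level on the x axis. Open symbols below the dotted line are wells with 0 counts. SPARC lay at 2141 CPM or more in every well, FSTL1 and SMOC1 between 12 and 78 CPM, and the other members below 1 CPM.

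SPARC, whose protein regulates collagen deposition and cell adhesion, lies on the minus strand of chromosome 5 (GRCh38, 151661096 to 151687165). It had 54709, 76239 and 51589 counts in vitamin C replicates 1, 2 and 3 and 101676, 59506 and 37086 counts in control replicates 1, 2 and 3. In CPM these were 2141, 2317 and 2463 in vitamin C wells and 2441, 2216 and 2295 in control wells. The groups overlapped, with the lowest and the highest of the 6 values both in vitamin C wells. The mean was 2307 ± 161 CPM with vitamin C and 2317 ± 115 CPM in control (SD, n = 3 wells each). The log2 fold change was -0.01 with a 95% interval from -0.12 to 0.11, so that a change of the size seen for FSTL1 lay outside it. Without vitamin C replicate 3 the log2 fold change was -0.05. By mean CPM, SPARC ranked 12 among all identifiers. CLMAT3, a non-coding gene on the opposite strand, covers 7.89% of its exon bases and had 48, 76 and 32 counts in vitamin C and 40, 61 and 48 counts in control replicates.

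SMOC1 was the member that differed most. It had 361, 414 and 261 counts in vitamin C replicates 1, 2 and 3 and 1189, 711 and 423 counts in control replicates 1, 2 and 3. Its level was 14.1, 12.6 and 12.5 CPM in vitamin C wells, against 28.6, 26.5 and 26.2 CPM in control wells. The 3 vitamin C wells lay close together and all below the 3 control wells. The mean was 13.1 ± 0.929 CPM with vitamin C and 27.1 ± 1.29 CPM in control (SD, n = 3 wells each). The fitted log2 change was -1.06 (standard error 0.0782, 95% interval -1.22 to -0.89). Among the 16353 genes tested, 111 had a lower log2 fold change than SMOC1. The log2 fold change stayed between -1.12 and -1.01 over 14 alternatives and was -1.03 without vitamin C replicate 3. No exon base of SMOC1 overlaps another gene in GENCODE 29. SMOC2, its paralog on chromosome 6 (GRCh38, 168441151 to 168673445), had 0, 1 and 0 counts in vitamin C and 0, 2 and 0 counts in control replicates. A count of 0 allows up to 3 counts, which is 0.117 and 0.143 CPM in vitamin C replicates 1 and 3 and 0.072 and 0.186 CPM in control replicates 1 and 3. At this depth no difference in SMOC2 could be detected, and no fold is given.

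FSTL1 lies on the minus strand of chromosome 3 (GRCh38, 120392293 to 120451253) and had 1925, 2558 and 1474 counts in vitamin C replicates 1, 2 and 3 and 2262, 1418 and 874 counts in control replicates 1, 2 and 3. Its level was 75.3, 77.8 and 70.4 CPM in vitamin C wells, against 54.3, 52.8 and 54.1 CPM in control wells. Every vitamin C well lay above every control well, and the control wells differed little among themselves. The mean was 74.5 ± 3.77 CPM with vitamin C and 53.7 ± 0.818 CPM in control (SD, n = 3 wells each). The fitted log2 change was 0.47 (standard error 0.0554, 95% interval 0.35 to 0.59). The log2 fold change was 0.52 without vitamin C replicate 3 and lay between 0.44 and 0.52 over the 14 alternatives. Among all genes tested, 994 had a larger log2 fold change. AC063952.1, on the opposite strand, covers 3.62% of the FSTL1 exon bases and had 2, 4 and 1 counts in vitamin C and 3, 5 and 4 counts in control replicates. Fibroblasts also express FSTL1. The summed level of 9 fibroblast markers was 186 to 217 CPM in vitamin C wells and 113 to 124 CPM in control wells, most of it from LUM and FAP. Of 7 tested, LUM, FAP, PDGFRB and COL3A1 rose (1.77-fold, 1.72-fold, 3.02-fold and 1.69-fold), none fell, and DCN, PDGFRA and COL1A1 did not pass. COL1A1 averaged 0.452 CPM with vitamin C and 0.470 CPM in control. COL1A2, not tested, averaged 0.514 and 0.552 CPM. THY1, too low to test, went the other way, with 0.0391, 0.0304 and 0.0477 CPM in vitamin C wells and 0.120, 0.149 and 0.0619 CPM in control wells. The part of such cells in the FSTL1 level was not tested, and in bulk RNA a change in the number of cells and in RNA per cell cannot be told apart.

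**Figure D2:**
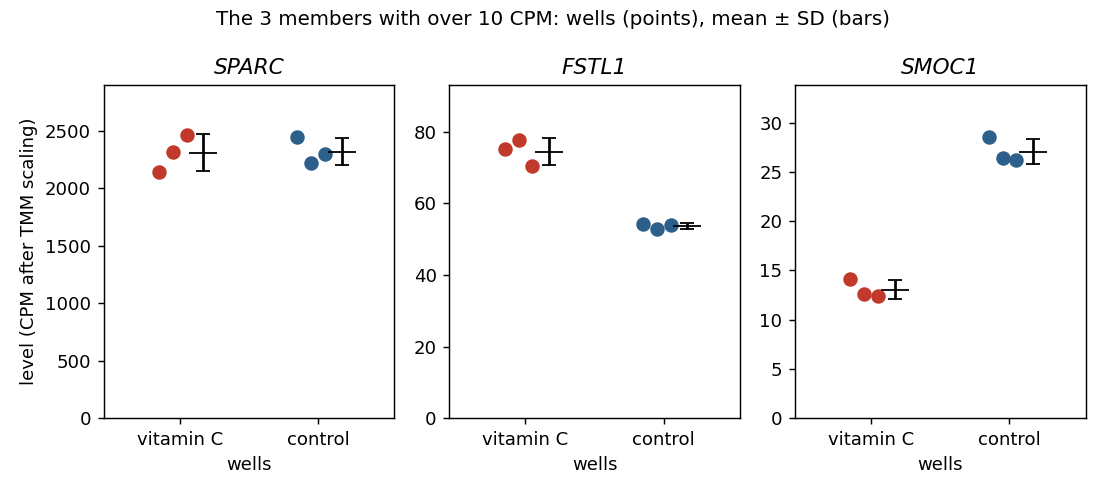
CPM after TMM scaling (y axes, from 0) of SPARC, FSTL1 and SMOC1 in 3 vitamin C wells (red) and 3 control wells (blue), with the mean and SD of each group as black bars. The groups overlap for SPARC and lie apart for FSTL1 (70.4 CPM or more with vitamin C) and SMOC1 (14.1 CPM or less with vitamin C).

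Wells lay apart between the groups for 2 of the 5 members tested, SMOC1 and FSTL1, while 30.6% of all genes tested did so. In CPM, FSTL1 was higher and SMOC1 lower in vitamin C wells. That the members differed unequally could also be read from raw counts within each library, with no scaling, though such a ratio does not show which member moved. There were 5.33, 6.18 and 5.65 FSTL1 reads per SMOC1 read in vitamin C replicates 1, 2 and 3, against 1.90, 1.99 and 2.07 in control replicates 1, 2 and 3. The means were 5.72 ± 0.428 with vitamin C and 1.99 ± 0.0821 in control (SD, n = 3 wells each). SPARC reads per SMOC1 read averaged 178 ± 23.7 with vitamin C and 85.6 ± 1.99 in control. SPARC reads per FSTL1 read averaged 31.1 ± 3.47 with vitamin C and 43.1 ± 1.61 in control. The control wells kept each ratio within a narrow range, and the vitamin C wells spread more widely.

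**Figure D3:**
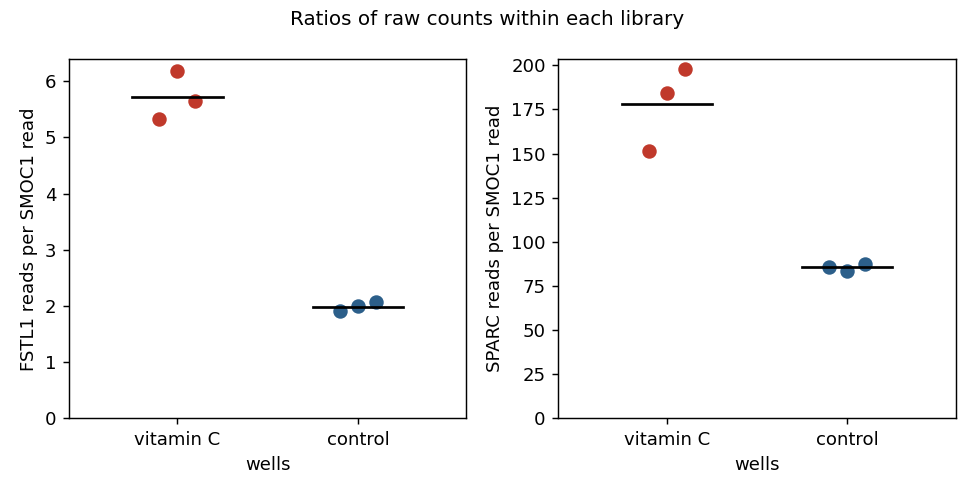
FSTL1 reads per SMOC1 read (left) and SPARC reads per SMOC1 read (right), from raw counts within each library (y axes, from 0), in 3 vitamin C wells (red) and 3 control wells (blue) with the group mean as a line. The left ratio was 5.33 or more in vitamin C wells and 2.07 or less in control wells.

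To compare members with each other, CPM was divided by the kilobases of all exons of each gene. On this scale SPARC had a level of 478 ± 33.3 CPM per kb with vitamin C and 480 ± 23.7 in control (SD, n = 3 wells each), rank 29 among all genes with a known length. FSTL1 followed with 8.54 ± 0.432 CPM per kb with vitamin C and 6.16 ± 0.0937 in control. SMOC1 had 2.99 ± 0.213 CPM per kb with vitamin C and 6.20 ± 0.296 in control. Thus FSTL1 stood above SMOC1 in vitamin C wells by 2.86-fold, while in control wells their levels per kb did not differ beyond the spread (ratio 0.995 ± 0.0411). With the longest transcript as the length, the control ratio was 1.23 and FSTL1 stood above SMOC1 there too. The order below them was SPOCK2, SPOCK1, SPOCK3, SPARCL1 and SMOC2 in vitamin C wells, with 0.123 ± 0.0159 CPM per kb for SPOCK2 and 0.0684 ± 0.00522 for SPOCK1. SPOCK3, at 0.0543 ± 0.0368 CPM per kb in vitamin C wells, lay within the spread of both SPOCK1 and SPARCL1 (0.0217 ± 0.00902), so the order of these 3 was not resolved. In control wells SPOCK2 (0.115 ± 0.0313 CPM per kb) and SPOCK1 (0.0907 ± 0.0301) lay within each other's spread, and SPARCL1 (0.0367 ± 0.0205) came before SPOCK3 (0.0201 ± 0.00568), also within the spread.

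The testicans were near the limit of detection. SPOCK2 on chromosome 10 (GRCh38, 72059035 to 72089032) had 21, 23 and 19 counts in vitamin C and 22, 25 and 13 counts in control replicates. Its level was 0.809 ± 0.105 CPM with vitamin C and 0.755 ± 0.206 CPM in control (SD, n = 3 wells each), and the groups overlapped. The log2 fold change was 0.13 with a 95% interval from -0.55 to 0.81. Leaving out control replicate 1 gave -0.13 and leaving out control replicate 2 gave 0.35, so its sign rested on control replicate 1. SPOCK1 on chromosome 5 (GRCh38, 136975298 to 137598379) had 10, 15 and 9 counts in vitamin C and 24, 20 and 6 counts in control replicates. Its level of 0.426 ± 0.0325 CPM with vitamin C lay inside the range of the control wells, which averaged 0.564 ± 0.187 CPM. Its log2 fold change was -0.45 with an interval from -1.22 to 0.32, and it was -0.23 without control replicate 2. Both intervals include no change. That of SPOCK1 also includes a decrease the size of the SMOC1 difference, and that of SPOCK2 an increase the size of the FSTL1 difference.

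SPOCK3, on chromosome 4 (GRCh38, 166733384 to 167234796), had too few counts for the test, with 3, 6 and 9 counts in vitamin C replicates 1, 2 and 3 and 4, 3 and 1 counts in control replicates 1, 2 and 3. Its levels of 0.117, 0.182 and 0.430 CPM in vitamin C wells lay above those of 0.0961, 0.112 and 0.0619 CPM in control wells. The 18 and 8 pooled counts gave a ratio of 2.4 with an exact 95% interval from 0.993 to 6.38, which covers counting error alone and includes 1. Vitamin C replicate 3 held 9 of the 18 counts. SPARCL1, also on chromosome 4 (GRCh38, 87473335 to 87531061), had 1, 3 and 2 counts in vitamin C and 2, 4 and 3 counts in control replicates. Its pooled ratio was 0.711 (exact 95% interval 0.208 to 2.24, counting error alone). SPARCL1 is known from endothelial cells, whose 7 markers summed to 17.5 to 19.3 CPM in vitamin C wells and 9.16 to 9.78 CPM in control wells, and of which 3 of 5 tested rose (PECAM1 3.04-fold, TIE1 2.36-fold and KDR 1.83-fold) and none fell. Most of the sum was KDR, with 12.0 CPM in vitamin C and 6.59 CPM in control wells on average. VWF and ESAM did not pass. CDH5, too low to test, had 0.117, 0.152 and 0.239 CPM in vitamin C wells and 0.0480, 0.0372 and 0.0619 CPM in control wells. TEK, also not tested, averaged 0.262 CPM with vitamin C and 0.286 CPM in control. The part of endothelial cells in the SPARCL1 counts was not tested.

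**Figure D4:**
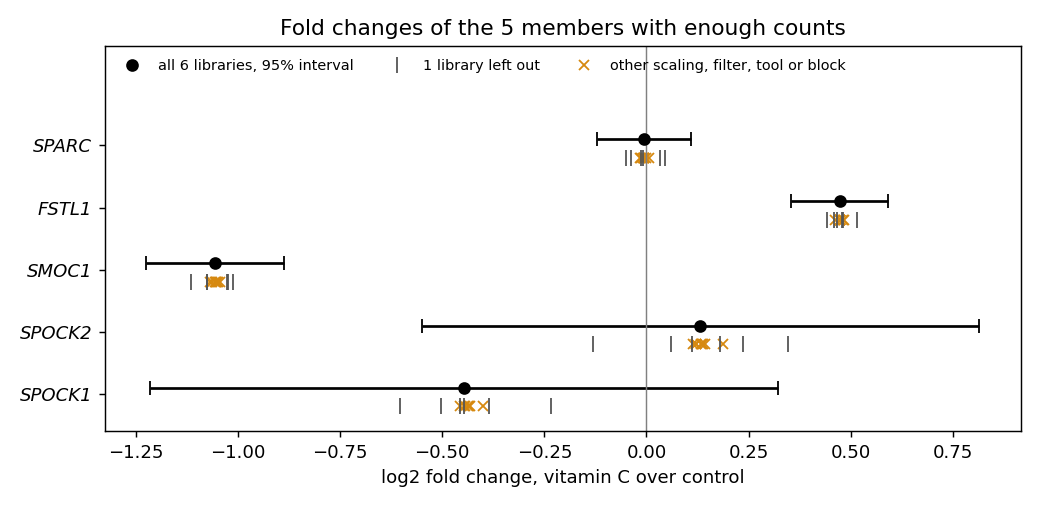
Log2 ratio of vitamin C to control wells (x axis) for the 5 members with enough counts, with the 95% interval from edgeR (black), the values with 1 library left out (gray ticks) and those under other scalings, filters, tools or a replicate block (orange crosses). SMOC1 stayed below -1 and FSTL1 above 0.44, SPARC stayed near 0, and SPOCK2 crossed 0 when control replicate 1 was left out.

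Genes whose levels over the 6 libraries were most like those of SMOC1 were searched for among the 13671 genes averaging 1 CPM or more. The 3 with the highest Pearson correlation of log2 CPM were PODXL2, a sialomucin of the cell surface, PDZD4, a protein with a PDZ domain, and NT5E, the ectonucleotidase CD73 (r = 0.999, 0.998 and 0.997, n = 6 libraries). In all, 306 genes had r of at least 0.95. These values are a description, since any gene that differs between the groups correlates over libraries that share them. PODXL2 had 29.1 ± 1.36 CPM with vitamin C and 42.2 ± 0.849 CPM in control (SD, n = 3 wells each). NT5E had 94.0 ± 2.32 CPM with vitamin C and 124.7 ± 4.65 CPM in control. Their log2 fold changes, -0.54 and -0.41, were smaller in size than that of SMOC1.

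Genes with a known tie to the family were examined in 5 lists, with p-values from edgeR's quasi-likelihood test adjusted over all 16353 genes. The lists were drawn up with earlier results of these data known. Their shares called and p-values are therefore a description, and no enrichment is read from them. The median log2 fold change of all genes tested was -0.0037. Of 10 other genes with a follistatin domain, 5 were tested and 1 fell (20% called, beside 11.2% of all genes), and the median log2 fold change of those tested was -0.23. FSTL3, which binds activins, had 5.05, 4.77 and 4.01 CPM in vitamin C wells, against 6.99, 6.85 and 6.81 CPM in control wells (log2 change -0.57 ± 0.122 SE, adjusted p = 0.00853 in edgeR). Without vitamin C replicate 3, 2 genes of this list were called. IGFBP7, the most abundant of the list, was at a log2 fold change of 0.06 and did not pass. FST, the follistatin gene itself, stayed below 1 CPM in every well.

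Among other matricellular genes, more fell than rose. Of 24 genes, 16 were tested, 3 rose, 7 fell and 6 did not pass, so that 62.5% were called beside 11.2% of all genes, and the median was -0.22. CCN3, a regulator of adhesion and growth, fell to 33.2, 33.3 and 33.2 CPM in vitamin C wells, against 52.0, 53.5 and 53.4 CPM in control wells (log2 change -0.67 ± 0.0553 SE, adjusted p = 5.7e-06 in edgeR). The elastic fiber protein FBLN5, the fibulin EFEMP1 and osteopontin, SPP1, fell with log2 fold changes of -0.64, -0.50 and -0.30. POSTN, or periostin, named after its values were seen, rose to 3.01, 2.86 and 3.06 CPM in vitamin C wells, against 0.864, 0.707 and 1.49 CPM in control wells. In this list, 6 genes were called without control replicate 1 and 6 without control replicate 3.

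BMP signaling is the pathway on which SMOC1 and FSTL1 act in other systems. Of 32 of its genes, 21 were tested, 2 rose, 1 fell and 18 did not pass, so that 14.3% were called, near the 11.2% of all genes, and the median was 0.013. BAMBI, a decoy receptor, had 230, 228 and 235 CPM in vitamin C wells, against 198, 183 and 188 CPM in control wells (log2 change 0.28 ± 0.0454 SE, adjusted p = 0.00123 in edgeR). SMAD9, a transducer of BMP receptors, rose with 0.39, and the ligand BMP6 fell with -1.18. The last 2 calls were lost without vitamin C replicate 2, where the log2 fold changes were 0.34 and -1.095 and 1 gene of the list was called. The target gene ID1 had 5.17, 6.84 and 5.63 CPM in vitamin C wells and 5.21, 3.42 and 4.64 CPM in control wells, and none of ID1, ID2, ID3 and ID4 passed. The ligands BMP2, BMP4, BMP5 and BMP7 had too few counts to test.

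Among binding partners and receptors, 27 genes were examined and 21 tested, of which 4 rose, 3 fell and 14 did not pass (33.3% called, beside 11.2% of all genes, median 0.018). The chains of collagen IV, a ligand of SPARC in basement membranes, fell. COL4A1 had 296, 304 and 290 CPM in vitamin C wells, against 404, 374 and 375 CPM in control wells (log2 change -0.37 ± 0.046 SE, adjusted p = 0.000165 in edgeR), and COL4A2 fell with -0.30. The integrin subunits ITGB3 and ITGA5 rose with 0.31 and 0.34, ITGB5 fell with -0.19, and ITGB1 and ITGAV did not pass. The FSTL1 receptors DIP2A and TLR4 were read at 28.2 to 31.8 and 83.0 to 84.0 CPM in vitamin C wells and at 29.6 to 32.9 and 71.7 to 81.0 CPM in control wells, and neither passed. STAB1, the scavenger receptor that clears SPARC in macrophages, stayed below 0.2 CPM in every well. Without control replicate 2, 4 genes of this list were called.

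Proteases that cut members of the family or are met by them included more that rose than fell. Of 18 genes, 14 were tested, 7 rose, 2 fell and 5 did not pass (64.3% called, beside 11.2% of all genes, median 0.15). Cathepsin K, CTSK, which can cleave SPARC, had 41.7, 45.4 and 52.5 CPM in vitamin C wells, against 23.0, 23.0 and 23.9 CPM in control wells (log2 change 1.00 ± 0.081 SE, adjusted p = 5.1e-06 in edgeR). CTSS, another cathepsin, rose with 0.75 and ADAMTS4, a matrix protease that can cleave SPARCL1, with 0.56, while the membrane-type protease MMP15 fell with -0.42. Fibroblasts and blood cells also make cathepsins. The summed level of the fibroblast markers given above was higher in vitamin C wells, most of it from LUM and FAP. COL1A1 and COL1A2 were at like levels in both groups, and THY1 was lower with vitamin C. The 8 blood cell markers summed to 8.16 to 9.88 CPM in vitamin C wells and 4.49 to 5.85 CPM in control wells. Most of the blood cell sum was LAPTM5, which rose 1.97-fold. PTPRC averaged 0.572 CPM with vitamin C and 0.854 CPM in control and did not pass. The other 6 blood cell markers, among them CD53 and TYROBP, were at 0.124 CPM or less in every well. The part of fibroblasts and blood cells in the protease levels was not tested. The number of proteases called was 4 without control replicate 2, 5 without control replicate 3 and 5 without vitamin C replicate 2.

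**Figure D5:**
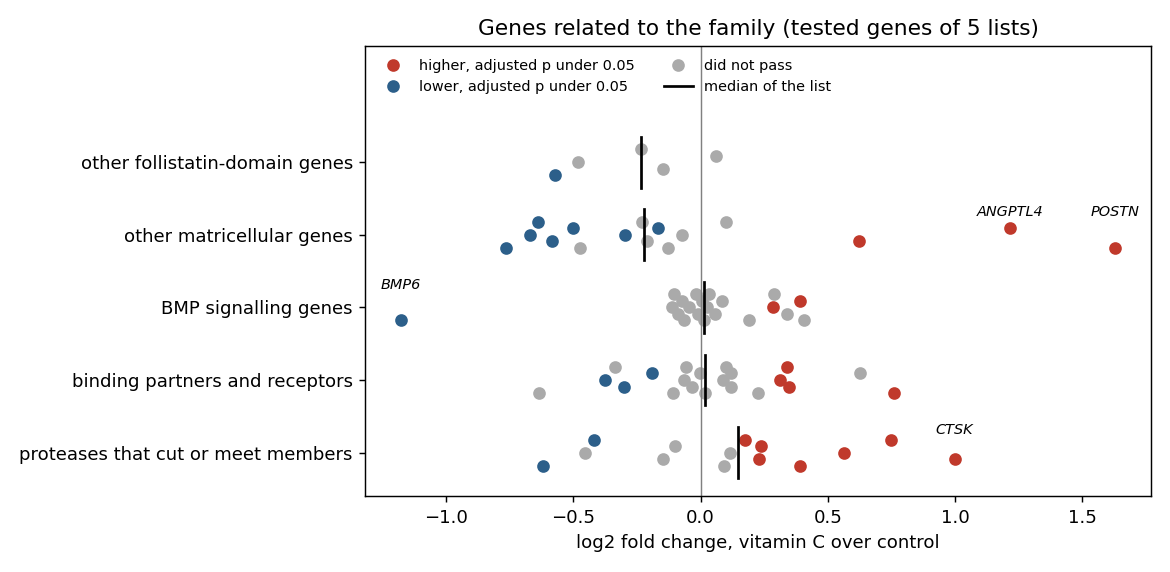
Log2 ratio of vitamin C to control wells (x axis) of the tested genes in 5 lists related to the family (rows), each point 1 gene, in red where higher and in blue where lower at an adjusted p under 0.05 and in gray where the test was not passed, with the list median as a black line. Among other matricellular genes 7 fell and 3 rose, and among proteases 7 rose and 2 fell.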

How the data were processed

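RNA-seq of ribosome-depleted RNA was analyzed for 3 vitamin C wells and 3 control wells, the groups given by the sample labels. The authors deposited raw gene counts, made by STAR alignment and HTSeq against GENCODE v19 according to the methods of the study. CASAVA 1.4, Trim Galore and hg38 appear in the processing notes of the submitters. GENCODE v19 is an annotation of the earlier build hg19, so these statements cannot both describe the counts, and which annotation was used is unresolved. No source used here says whether counting used strand. Symbols, lengths and coordinates came from GENCODE 29 (GRCh38), which holds 57055 of the 60675 identifiers. The single-sample tables equal the series table in 6 of 6 files.

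Counts were tested in R 4.3.3 with edgeR 4.0.16 (filterByExpr, TMM, quasi-likelihood test, Benjamini-Hochberg adjusted p under 0.05), vitamin C against control with no other term. The standard error is the log2 fold change divided by the root of the F value. The steps were tested on simulated data. P-values set the difference between groups against the spread between wells of 1 line, which may be technical. Intervals from pooled counts and floors cover counting error only. The members and lists were chosen with earlier results of these data known. Members were all named, with up to 4 called genes of smallest p in each related list and the 3 genes of highest correlation with SMOC1 (mean of at least 1 CPM, log2 of CPM plus 0.5). Marker lists were to be given by counts and summed level. Other genes named (POSTN and, in the plot of related lists, ANGPTL4, the single markers of the cell type lists, ITGB5, ITGB1, ITGAV, and IGFBP7, FST, ID1 to ID4, DIP2A, TLR4, STAB1, BMP2, BMP4, BMP5 and BMP7) were chosen after their values were seen. Alternatives were other scalings, filters, DESeq2 1.42.0, limma-voom (limma 3.58.1), a replicate block, each library left out and a stricter threshold. Promoter windows are from RefSeq.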

Additional observations from a re-analysis of the deposited data

How the results depend on the processing

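The number of members called was 2 under each of the 15 other settings. This count is a description, since the family was chosen with this comparison known. Deviations of same-numbered wells correlated between the groups at 0.129, -0.0355 and 0.103, and those of differently numbered wells at -0.19 to 0.125. With 3 wells per group these values cannot decide whether the wells were paired. The replicate block gave 1913 called genes, 28 related genes and 2 members. Leaving out single libraries gave 964 to 2095 called genes (1829 with all), 2 members, 19 to 31 related genes (30 with all), 1 to 2 genes with a follistatin domain, 6 to 9 matricellular genes, 1 to 3 BMP genes, 4 to 7 partners and 4 to 10 proteases. At an adjusted p under 0.01, 795 genes, 18 related genes, 6 matricellular genes, 4 partners and 5 proteases were called. With the length of the longest transcript, FSTL1 over SMOC1 per kb was 3.53 in vitamin C wells (2.86 with all exons) and 1.23 in control wells (0.995 with all exons). Upper quartile scaling gave 892 higher and 963 lower genes, against 996 and 833 with TMM. Of 224 values of named related genes, 222 stayed on their side of the threshold. Counts under 30 per library limit what can be said of SPOCK1, SPOCK2, SPOCK3, SPARCL1 and SMOC2.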
